A study of Mus musculus with 12 samples.

Results

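Mouse R1 embryonic stem cells (ESCs) that carried a scrambled control were compared before and after differentiation with retinoic acid. R1 is an established ESC line. The members were the 4 arrays whose titles name scrambled cells, 2 of undifferentiated ESCs and 2 of cells titled as differentiated for 4 days, out of 12 arrays in the series. The undifferentiated cells had grown in serum with 1000 U/ml leukemia inhibitory factor (LIF), a cytokine that holds mouse ESCs in an undifferentiated state. The differentiated cells had grown in serum without LIF and with 1 µM retinoic acid, so loss of LIF and gain of retinoic acid cannot be told apart in these data. Both groups came from cells that the labels describe as infected with the scrambled control, and the treatment notes speak of control clones. ESCs were kept on mouse embryonic fibroblasts whose division was blocked with mitomycin, a feeder layer whose RNA can enter the samples. The other 8 arrays held cells with a knockdown of Smarcd1, a subunit of the BAF chromatin remodelling complexes: 2 undifferentiated arrays of line KD1, 2 of line KD2 and 4 of KD1 after the same differentiation.

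Retinoic acid is a small lipid made from vitamin A. It enters the nucleus and binds receptors of the RAR family, which pair with RXR receptors on DNA at direct repeats of a short half-site, and genes next to these repeats are then transcribed. In mouse ESCs retinoic acid is widely used to end self-renewal; it shuts down the pluripotency network around Pou5f1, Sox2 and Nanog and opens the Hox clusters, which give cells a position along the head-to-tail axis.

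The promoters of the genes that open and close this account are shown first, since the retinoid half-sites and the pluripotency composite site can be read in them. Sequences were taken from RefSeq on GRCm38.p6, 250 bases before to 50 bases after a gene start, in the direction of transcription. Capitals mark a match. In Rarb, the retinoic acid receptor beta gene (chr14:16575427-16575726, minus strand), and in Cyp26a1, which encodes the main enzyme that breaks retinoic acid down (chr19:37697558-37697857, plus strand), the match is a direct repeat with 5 bases between half-sites. In Nanog, a homeobox gene of the pluripotency network (chr6:122707315-122707614, plus strand), it is the composite of a Sox and an Oct half-site, CATTGT and ATGCAAA with 1 base between, read on the other strand.
Rarb: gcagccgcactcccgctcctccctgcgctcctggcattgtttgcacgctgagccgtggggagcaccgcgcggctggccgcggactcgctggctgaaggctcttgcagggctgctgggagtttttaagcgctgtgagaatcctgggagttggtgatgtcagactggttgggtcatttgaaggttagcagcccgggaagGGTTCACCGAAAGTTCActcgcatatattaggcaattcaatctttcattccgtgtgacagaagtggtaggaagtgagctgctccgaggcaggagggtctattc
Cyp26a1: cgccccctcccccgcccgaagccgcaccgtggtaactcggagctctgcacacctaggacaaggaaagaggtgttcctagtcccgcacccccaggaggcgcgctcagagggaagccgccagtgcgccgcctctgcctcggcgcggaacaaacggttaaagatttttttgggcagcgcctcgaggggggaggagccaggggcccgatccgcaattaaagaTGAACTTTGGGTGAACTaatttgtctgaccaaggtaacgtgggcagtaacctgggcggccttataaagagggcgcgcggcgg
Nanog: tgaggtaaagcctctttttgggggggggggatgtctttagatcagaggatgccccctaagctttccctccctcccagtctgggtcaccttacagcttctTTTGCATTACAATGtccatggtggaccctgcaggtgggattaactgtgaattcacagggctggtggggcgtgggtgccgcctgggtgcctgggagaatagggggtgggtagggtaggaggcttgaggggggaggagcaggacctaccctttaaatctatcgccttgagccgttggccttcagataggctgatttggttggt

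The half-sites searched were AGGTCA or AGTTCA or GGTTCA or GGGTCA, on both strands. A repeat with 5 bases between was in 32 of 32851 promoters of the table (0.0974%), a repeat with 2 bases between in 88 (0.268%) and one with 1 base between in 73 (0.222%). The half-sites of a motif can also belong to another motif. In Rarb the repeat began 53 bases before the gene start. In Cyp26a1 it lay on the minus strand with its first printed base 32 bases before the start. Of the genes with such a repeat of 5, 6 were tested on the arrays, and 2 of these rose, Rarb and Cyp26a1. For the repeat of 2 it was 10 tested, with 4 higher and 1 lower, and for the repeat of 1 it was 31 tested, with 4 higher and 3 lower. Over all tested genes 22.4% were higher and 16.7% lower. The composite site was found in 2 overlapping promoters, both of Nanog. Among 75 measured genes of the retinoid and pluripotency lists described below, 54 had a promoter in the table, and a repeat of 5 was in 2 of them. A match is a run of letters and was not tested for binding.

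Rarb read 4.16 and 4.62 on the undifferentiated arrays and 8.75 and 9.18 on the differentiated arrays, a rise of 4.57 ± 0.28 log2 units (SE, limma adjusted p = 7.35e-07), or 23.8-fold. All levels are deposited log2 values, and a difference of 1 is a 2-fold change. Cyp26a1 read 8.90 on undifferentiated replicate 1 but 4.39 on replicate 2, and 10.54 and 10.32 after retinoic acid. Its rise of 3.79 ± 0.95 (SE, adjusted p = 0.00817) therefore depended on the undifferentiated array used: it was 6.04 without replicate 1 and 1.53 without replicate 2. Leaving out differentiated replicate 1 gave 3.68 with an adjusted p of 0.0501, at which the call was lost. Nanog fell from 10.35 and 9.76 to 7.40 and 7.43, by -2.64 ± 0.80 (SE, adjusted p = 0.0213), a change of 6.24-fold. The spread behind this SE came from all arrays of the series, and Nanog also passed with the 4 scrambled arrays alone. Nanog (-2.94 to -2.35) was not called when any 1 of the 4 scrambled arrays was left out.

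Of 6 microRNA genes whose precursors changed, the 5 of one cluster are shown next by seed, bases 2 to 8 of the mature RNA, in capitals. The seed is the stretch that pairs with target messages, so microRNAs with one seed are read as a family. The cluster, Mir17 to Mir92-1 on chromosome 14, is cut from a single primary transcript. The mature sequences are from RefSeq on GRCm38.p6.
miR-17-5p (chr14:115043684-115043706, plus strand): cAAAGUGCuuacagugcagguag
miR-20a-5p (chr14:115044183-115044205, plus strand): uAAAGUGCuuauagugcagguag
miR-18a-5p (chr14:115043867-115043889, plus strand): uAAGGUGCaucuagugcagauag
miR-19a-3p (chr14:115044048-115044070, plus strand): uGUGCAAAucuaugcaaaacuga
miR-19b-3p (chr14:115044358-115044380, plus strand): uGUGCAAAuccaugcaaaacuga

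The first pair shares the seed AAAGUGC, miR-18a has AAGGUGC, and the last pair shares GUGCAAA. Array probe sets of this kind read RNA that holds the hairpin, so these values describe the precursor and not the mature microRNA. Mir17 read 7.45 and 7.90 in ESCs and 5.87 and 4.81 after retinoic acid. Mir20a went from 8.33 and 8.77 to 6.72 and 5.59, Mir18 from 8.79 and 8.94 to 6.67 and 5.58. For each of the 5 the differentiated arrays lay below both undifferentiated arrays, and differentiated replicate 2 was the lower of its pair by 1 log2 unit or more. The changes were -2.34 ± 0.43 for Mir17 (SE, adjusted p = 0.00118), -2.40 ± 0.41 for Mir20a, -2.74 ± 0.46 for Mir18, -2.78 ± 0.48 for Mir19a and -2.67 ± 0.38 for Mir19b-1. The host transcript Mir17hg, looked up after these values were seen, read 8.20 and 8.08 and then 6.0 and 5.39, a change of -2.44 ± 0.28 (SE, adjusted p = 4.64e-05). It shares its RNA with the 5 precursors, so these are not independent. The list of 56 microRNA genes had 36 measured and 9 tested members, of which 0 rose and 6 fell. The sixth was Mirlet7g at -1.21 ± 0.40 (SE, adjusted p = 0.0312); Mir127, Mir370 and Mirlet7e did not pass. Of the 36, 32 had a mature sequence in the reference table. Mirlet7g (-1.30 to -1.11) was not called when any 1 of the 4 scrambled arrays was left out.

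A second microRNA cluster, Mir302 on chromosome 3, is a known product of early embryonic cells and carries a seed shifted by a base from that of miR-17. It was singled out after its values were seen, because its undifferentiated arrays disagreed.
miR-302b-3p (chr3:127545275-127545297, plus strand): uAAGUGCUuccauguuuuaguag
miR-302d-3p (chr3:127545665-127545687, plus strand): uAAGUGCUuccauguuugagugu

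Mir302a read 5.75 and 3.01 on undifferentiated replicates 1 and 2 and 2.36 and 2.44 after retinoic acid. Mir302c read 6.20 and 3.85 and then 2.44 and 2.63, and Mir302d 5.22 and 3.17 and then 2.60 and 2.62. None of the Mir302 genes passed the filter on dim genes, so they were not tested.

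The replicates of a group were close overall. Over all probe sets the Pearson correlation was 0.990 between the undifferentiated arrays and 0.989 between the differentiated arrays, against 0.932 to 0.945 across the 2 groups. The labels call the replicates biological and do not state whether they came from separate cultures; p-values thus cover array-to-array spread that may be technical, and the small number of arrays limits the precision. Of the tested genes 182 differed by over 1 log2 unit between the undifferentiated arrays and 41 between the differentiated arrays. Among the 182 genes, 63 were higher on undifferentiated replicate 1 and the rest on replicate 2. On KD2 replicate 1 the level of Smarcd1 did not match the label. The KD2 arrays were also unlike each other over all probe sets. Against the differentiated scrambled arrays, KD2 replicate 1 correlated at 0.906 and 0.898 and KD2 replicate 2 at 0.955 and 0.95. Both KD2 arrays add to the pooled spread used in every test. Without both, 7074 genes were called in place of 5079. Smarcd1 itself read 8.67 and 8.68 in scrambled ESCs and 8.84 and 8.64 after retinoic acid.

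In all, 5079 of 12988 tested genes passed an adjusted p of 0.05, 39.1% of those tested, with 2914 higher (22.4%) and 2165 lower (16.7%) after retinoic acid. These shares are the background for the counts given below. The median change over all tested genes was 0.06. Changes of at least 2 log2 units were called for 356 higher and 308 lower genes, and changes of at least 4 for 22 and 28. Without differentiated replicate 2 the count fell to 3341, with 3298 of those genes among the 5079. By chromosome, the median change ran from 0.02 on chromosome 7 and 0.02 on chromosome 17 to 0.14 on chromosome 6. RNA was measured in bulk, so fewer cells of a type and less RNA per cell cannot be told apart in any value.

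The 4 genes named as markers of the response were chosen from this comparison, so their values are a description. Tdgf1, the Nodal co-receptor of undifferentiated cells, fell from 12.22 and 12.14 to 5.64 and 6.10. Meis1, a homeobox partner of Hox proteins, rose from 4.58 and 4.88 to 10.24 and 10.07, and Hoxa5 from 4.30 and 3.68 to 9.23 and 9.24. Dlk1, an imprinted growth regulator, rose from 6.09 and 6.08 to 11.36 and 11.68. For each of the 4 genes both differentiated arrays lay on one side of both undifferentiated arrays.

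**Figure D1:**
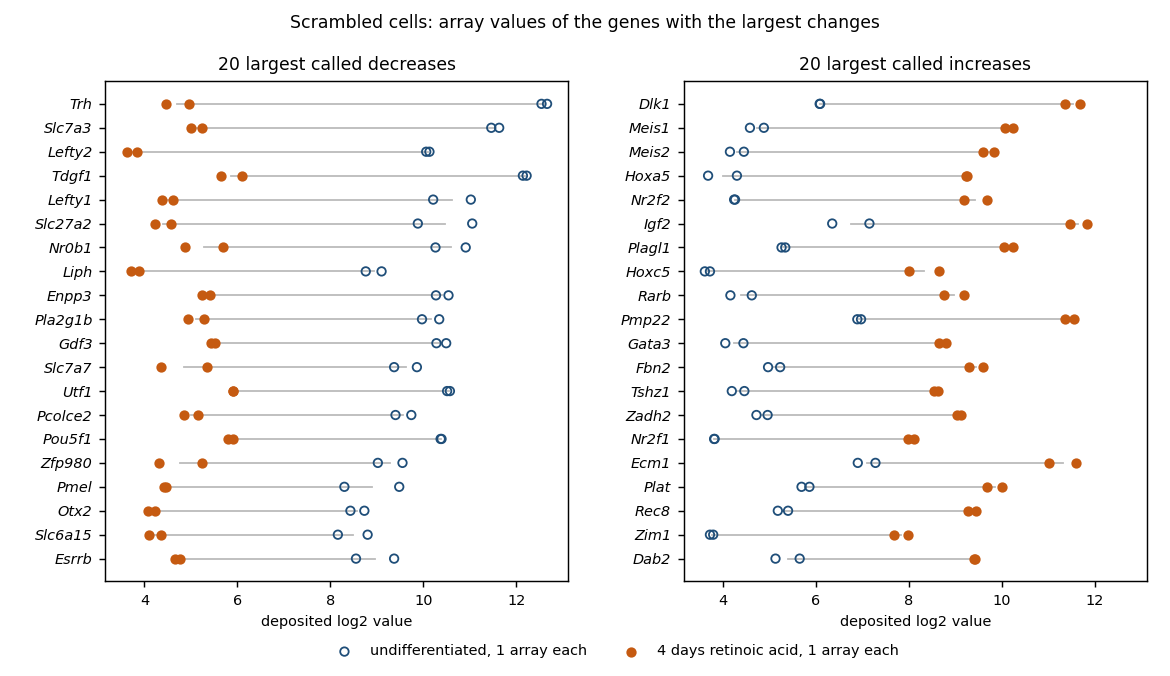
Deposited log2 value (x axis) on each of the 4 scrambled arrays for the 20 genes with the largest called decrease and the 20 with the largest called increase. Open circles are the 2 undifferentiated arrays and filled circles the 2 differentiated arrays; the groups do not overlap in these 40 genes, since this was part of how they were chosen.

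The largest decreases held genes outside the pluripotency list as well, grouped here by known role after their values were seen, so that no count over them is a result. Trh, which encodes the precursor of thyrotropin-releasing hormone, had the largest fall of the ranked genes, from 12.66 and 12.54 to 4.95 and 4.47, a change of -7.90 ± 0.30 (SE, adjusted p = 4.42e-08). Of the 20 ranked decreases, 4 were solute carriers: the cationic amino acid transporter Slc7a3 (-6.42 ± 0.30), the fatty acid transport protein gene Slc27a2 (-6.06 ± 0.35), Slc7a7 (-4.77 ± 0.36), which exports cationic amino acids, and Slc6a15 (-4.26 ± 0.47), which imports neutral amino acids. Slc7a3 went from 11.46 and 11.63 to 5.01 and 5.24, and Slc27a2 from 9.88 and 11.05 to 4.22 and 4.58. Among enzymes, the lipase gene Liph by 5.13 log2 units, the ectonucleotidase gene Enpp3 by 5.07 and the secreted phospholipase gene Pla2g1b by 5.05. Pcolce2, a helper of collagen processing (-4.56 ± 0.28), and Pmel, a pigment granule protein gene (-4.44 ± 0.29), completed this group. Zfp980, a zinc finger gene, went from 9.55 and 9.02 to 5.24 and 4.31; it belongs to a family of close copies that the probes may not separate.

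Among the largest increases, Pmp22, a membrane protein gene first known from myelin, rose from 6.89 and 6.97 to 11.35 and 11.56, by 4.52 ± 0.35 (SE, adjusted p = 3.44e-06). Gata3, a zinc finger transcription factor gene, rose from 4.44 and 4.05 to 8.64 and 8.80. The fibrillin gene Fbn2 rose by 4.35 ± 0.25 and the matrix gene Ecm1 by 4.22 ± 0.45. Plat, the tissue plasminogen activator gene, rose from 5.86 and 5.69 to 9.69 and 10.01, and Dab2, an endocytic adaptor gene, from 5.13 and 5.65 to 9.39 and 9.43. Tshz1, a zinc finger gene, and Zadh2, a reductase gene, rose by 4.26 ± 0.25 and 4.23 ± 0.29.

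**Figure D2:**
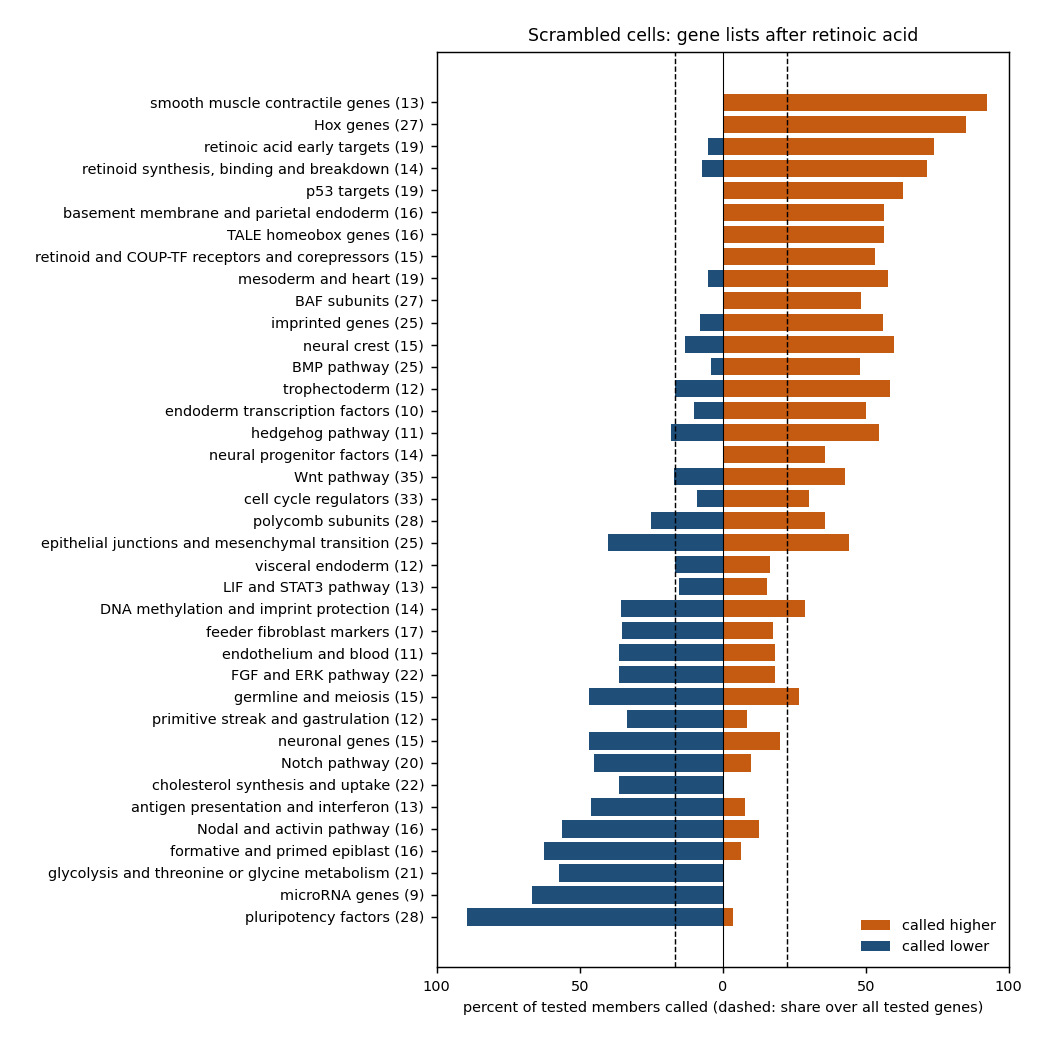
Percent of the tested members of each gene list that were called higher (to the right) or lower (to the left) after retinoic acid, with the number tested beside each name. Dashed lines mark the shares over all tested genes, 22.4% higher and 16.7% lower; lists with fewer than 5 tested members are left out.

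Pluripotency genes fell almost as a block. Of 28 tested factors 25 fell and 1 rose, with a median of -3.0. Pou5f1, the Oct4 gene at the centre of the network, went from 10.37 and 10.39 to 5.80 and 5.91, a change of -4.52 ± 0.25 (SE, adjusted p = 3.38e-07) or 22.9-fold. Nr0b1, an orphan receptor gene bound by Oct4 protein, went from 10.91 and 10.26 to 5.69 and 4.88 (-5.30 ± 0.66), and Utf1, a chromatin factor gene of undifferentiated cells, from 10.51 and 10.57 to 5.90 and 5.90 (-4.64 ± 0.31). Esrrb, an orphan receptor gene of the naive state, fell by 4.25 log2 units from 9.37 and 8.55. The zinc finger gene Zfp42 fell from 10.37 and 10.01 to 6.03 and 6.23, and Fbxo15, a target of Oct4 and Sox2, from 10.01 and 9.49 to 5.70 and 5.97. The member that rose was Tbx3 at 1.16 ± 0.34 (SE, adjusted p = 0.0189); its undifferentiated arrays read 7.90 and 6.58 and its differentiated arrays 8.27 and 8.52. The RNA-binding genes Lin28a (-0.70 ± 0.27) and Lin28b (0.05 ± 0.31) did not pass. Sox2, which is also a neural progenitor gene and is named here after its values were seen, fell from 10.65 and 10.61 to 9.0 and 8.63, by -1.82 ± 0.45. Tbx3 (0.50 to 1.29) was not called when undifferentiated replicate 2, differentiated replicate 1 or differentiated replicate 2 was left out. Nor was Tbx3 (1.16) called with the 4 scrambled arrays alone. Without undifferentiated replicate 1 the value was 1.82 for Tbx3. Lin28a (-1.09) passed without differentiated replicate 1. Lin28a (-0.70) passed without the KD2 arrays. Under cyclic loess (-0.80) and median centring (-0.79) Lin28a passed as well. Sox2 (-1.63) was not called when differentiated replicate 2 was left out.

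Genes of LIF signalling were called no more often than all tested genes, of which 22.4% were higher and 16.7% lower. Of 13 tested members 2 rose, Lif itself (0.76 ± 0.25) and the kinase gene Jak1 (1.39 ± 0.29), and 2 fell, Klf4 (-2.15 ± 0.37) and the kinase gene Pim3 (-0.73 ± 0.23). Klf4, a target of Stat3, read 8.24 on undifferentiated replicate 1 and 6.88 on replicate 2, and 5.47 and 5.35 after retinoic acid. The receptor genes Lifr (0.12 ± 0.34) and Il6st (-0.31 ± 0.32) and the feedback gene Socs3 (0.46 ± 0.36) did not pass. Lif (0.74 to 0.79) was not called when any 1 of the 4 scrambled arrays was left out. Lif (0.66 to 0.68) was not called under cyclic loess or median centring. Pim3 (-0.84 to -0.52) was not called when undifferentiated replicate 1, differentiated replicate 1 or differentiated replicate 2 was left out. The LIF list had, in place of 2 genes that rose, 1 without any 1 of the 4 scrambled arrays. The LIF list had, in place of 2 genes that fell, 1 without undifferentiated replicate 1, differentiated replicate 1 or differentiated replicate 2.

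Genes of the formative and primed epiblast, which follows the naive state in the embryo, mostly fell. Of 16 tested genes 10 fell and 1, Sox4 (2.01 ± 0.24), rose, with a median of -1.32. Otx2, a homeobox gene of the epiblast and the forebrain, went from 8.43 and 8.73 to 4.23 and 4.07, by -4.43 ± 0.36 (SE, adjusted p = 4.61e-06). Fgf5, the growth factor gene used to mark primed cells, fell from 7.88 and 8.09 to 6.13 and 6.47, and Dnmt3b, a de novo methyltransferase gene, from 9.07 and 9.92 to 6.50 and 6.19. Pou3f1 (-0.40 ± 0.17), Zic2 (-0.48 ± 0.23) and Lef1 (0.11 ± 0.28) did not pass. Pou3f1 (-0.61) and Zic2 (-0.79) passed without undifferentiated replicate 1. Pou3f1 (-0.40) passed without the KD2 arrays. Under cyclic loess (-0.49) and median centring (-0.48) Pou3f1 passed as well.

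Nodal signalling keeps the epiblast proliferating and acts through ligands, the Tdgf1 co-receptor, activin receptors, Smad2 or Smad3 and the DNA-binding partner Foxh1. Ligands, co-receptor and antagonists fell together: of 16 tested genes 9 fell and 2 rose. The ligand gene Nodal went from 10.36 and 10.21 to 6.39 and 6.23 (-3.98 ± 0.28, SE, adjusted p = 1.9e-06), and Gdf3, a related ligand gene, from 10.28 and 10.49 to 5.44 and 5.52. The antagonist genes Lefty1 and Lefty2, which Nodal induces, went from 10.21 and 11.02 to 4.38 and 4.62 and from 10.13 and 10.06 to 3.62 and 3.84. They are close copies, so their probe sets may share signal. Foxh1 fell from 7.21 and 7.57 to 4.15 and 4.41. Falls of under 2 log2 units were called for the receptor genes Acvr1b (-0.99 ± 0.29) and Acvr2b (-0.53 ± 0.19), and Acvr2a did not pass (-0.04 ± 0.33). The genes that rose were the signal carriers, Smad3 from 6.35 and 6.46 to 8.56 and 8.90 (2.33 ± 0.27, SE, adjusted p = 5.16e-05) and Smad2 by 1.01 ± 0.15. Acvr1b (-1.01 to -0.85) was not called when undifferentiated replicate 1, differentiated replicate 1 or differentiated replicate 2 was left out. Acvr2b (-0.58 to -0.33) was not called when undifferentiated replicate 2, differentiated replicate 1 or differentiated replicate 2, or any 1 of 5 KD1 arrays was left out.

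FGF signalling through ERK moves ESCs out of the naive state. Of 22 tested genes 8 fell and 4 rose. The ligand genes fell: Fgf4 from 9.34 and 8.98 to 5.17 and 5.38 (-3.88 ± 0.31, SE, adjusted p = 4.31e-06), Fgf17 by 2.79 and Fgf15 by 2.34, the last from 8.86 and 10.75 to 8.43 and 6.50. The ERK-responsive factor genes Etv4 (-1.34 ± 0.23) and Etv5 (-3.23 ± 0.28) and the feedback gene Spry4 (-2.35 ± 0.27) fell with them. Another feedback gene, the ERK phosphatase gene Dusp6, rose from 7.96 and 7.84 to 9.20 and 9.62 (1.51 ± 0.27). Of the receptor genes, Fgfr2 (0.93 ± 0.30) and Fgfr3 (0.78 ± 0.25) and the co-receptor gene Klb (0.65 ± 0.23) rose, and Fgfr1 (-0.06 ± 0.28) and Fgfr4 did not pass. Fgf15 (-1.40 to -1.37) was not called when undifferentiated replicate 2 or differentiated replicate 2 was left out. Fgfr2 (0.50 to 0.95) was not called when undifferentiated replicate 1, differentiated replicate 1 or differentiated replicate 2 was left out. Fgfr2 (0.82) and Fgfr3 (0.65) were not called under cyclic loess. Fgfr3 (0.65 to 0.90) was not called when any 1 of the 4 scrambled arrays was left out. Klb (0.35 to 0.65) was not called when undifferentiated replicate 2 or differentiated replicate 1, or any 1 of 6 KD1 arrays was left out. Klb (0.55 to 0.57) was not called under cyclic loess or median centring. Nor was Klb (0.65) called without the filter on dim genes or with the 4 scrambled arrays alone. Over the 23 measured genes of the FGF list the median change was -0.26. The FGF list had, in place of 4 genes that rose, 1 without differentiated replicate 1 and 2 without undifferentiated replicate 1, undifferentiated replicate 2 or differentiated replicate 2.

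The cells' own retinoid system rose in most of its steps. Of 14 tested genes of retinoid synthesis, binding and breakdown 10 rose and 1 fell, with a median of 2.39, or 1.28 over all 17 measured. Uptake was represented by Stra6, the retinol receptor gene, which went from 5.57 and 4.52 to 8.70 and 8.90 (3.75 ± 0.31, SE, adjusted p = 5.52e-06). For synthesis, Rdh10, which makes retinal from retinol, rose from 7.93 and 8.16 to 10.21 and 10.20. Aldh1a2, the main embryonic enzyme that makes retinoic acid from retinal, rose from 4.64 and 4.52 to 9.01 and 8.15 (4.00 ± 0.28, SE, adjusted p = 1.8e-06). Aldh1a1 rose by 2.61 ± 0.34, while Aldh1a3 was not tested. Enzymes that lower retinoic acid rose too: Dhrs3, which returns retinal to retinol, from 6.33 and 6.76 to 10.13 and 10.56, and Cyp26b1 from 4.93 and 4.57 to 7.17 and 7.79. Of the binding proteins, Crabp2, which delivers retinoic acid to receptors, rose from 5.59 and 5.62 to 9.69 and 9.01, whereas Crabp1 read 9.34 and 8.92 and then 9.92 and 9.04 and did not pass (0.35 ± 0.34, SE, adjusted p = 0.459). The member that fell was Rdh11, a retinal reductase gene, at -1.81 ± 0.17.

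Among the receptors and their partners, 8 of 15 tested genes rose and 0 fell. Rarb stood apart from its paralogs by its values: Rara changed by 0.41 ± 0.16 and Rarg by -0.30 ± 0.16, neither past the threshold. Rxra rose by 1.17 ± 0.19 and Rxrb did not pass (-0.09 ± 0.19). The COUP orphan receptors, which bind many of the same repeats, rose from levels that were alike on both undifferentiated arrays: Nr2f1 from 3.81 and 3.82 to 7.98 and 8.11 (4.23 ± 0.17, SE, adjusted p = 4.97e-08) and Nr2f2 from 4.26 and 4.24 to 9.18 and 9.68. Nrip1, a corepressor gene induced by retinoids, rose by 1.91 ± 0.23, and the coactivator gene Ncoa2 by 0.93 ± 0.16. Rara (0.41) passed without the KD2 arrays. Over the 16 measured genes of the receptor list the median change was 0.56.

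Of 19 tested early targets of retinoic acid 14 rose and 1 fell, with a median of 1.91, or 1.72 over all 20 measured. The list shares genes with the retinoid lists above, Rarb among them, so these counts are not independent. Stra8, named for its induction by retinoic acid, rose from 4.30 and 4.18 to 8.03 and 7.78 (3.67 ± 0.20, SE, adjusted p = 3.31e-07). Tgm2, a transglutaminase gene, rose from 5.29 and 5.25 to 8.30 and 8.12 and Zfp503 from 5.54 and 5.48 to 7.44 and 7.77. Cdx1 and Cdx2, which activate posterior Hox genes, did not pass: Cdx1 read 5.35 and 5.71 and then 5.81 and 5.82 (0.28 ± 0.18), and Cdx2 4.64 and 4.56 and then 4.80 and 4.76 (0.18 ± 0.16). The member that fell was Egr2, a hindbrain gene, at -0.60 ± 0.19 (SE, adjusted p = 0.0266). Egr2 (-0.42 to -0.41) was not called when undifferentiated replicate 1 or differentiated replicate 2 was left out.

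Rises of Hox genes were called mostly in paralog groups 1 to 9. Of 37 measured genes 27 were tested, and 23 of these rose and 0 fell, with a median of 1.64; the median over all 37 measured genes was 1.27. In paralog groups 1 to 4, at the 3′ end of each cluster, 10 of 11 tested genes rose, with a median difference of 1.77. In groups 5 to 9 it was 12 of 14, with a median of 1.58. In groups 10 to 13, 12 genes were measured, 2 were tested and 1 rose, Hoxc13 (0.54 ± 0.18); the differences of all 12 lay between -0.11 and 0.88. The filter kept genes that were high in some group, so the tested counts are not a count of all members. Hoxc13 (0.47 to 0.60) was not called when any 1 of the 4 scrambled arrays was left out. Hoxc13 (0.45) was not called under median centring.

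Hoxc5 rose from 3.61 and 3.72 to 8.65 and 8.0 (4.66 ± 0.28, SE, adjusted p = 6.78e-07), and Hoxb2, a hindbrain gene, from 4.23 and 4.38 to 7.85 and 7.72. Further back, Hoxc8 went from 4.34 and 4.91 to 7.52 and 7.93, Hoxc9 from 4.83 and 4.81 to 6.79 and 7.33 and Hoxb9 from 5.73 and 5.86 to 7.18 and 7.73. Hoxc4 rose by 3.04 ± 0.51, but its differentiated arrays differed, at 8.59 and 6.39. Neighbours could behave differently: Hoxb7 (0.23 ± 0.16) did not pass while Hoxb6 (2.00 ± 0.24) and Hoxb9 (1.65 ± 0.22) did, and Hoxa4 (0.69 ± 0.26) did not pass beside Hoxa3 (1.64 ± 0.20) and Hoxa5 (5.24 ± 0.39). Whether such neighbours differ from one another was not tested. By cluster the median difference was 0.98 in Hoxa, 1.86 in Hoxb, 1.5 in Hoxc and 0.32 in Hoxd. Without differentiated replicate 1 the value was 1.94 for Hoxc4. Hoxa4 (0.69) passed without the KD2 arrays.

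**Figure D3:**
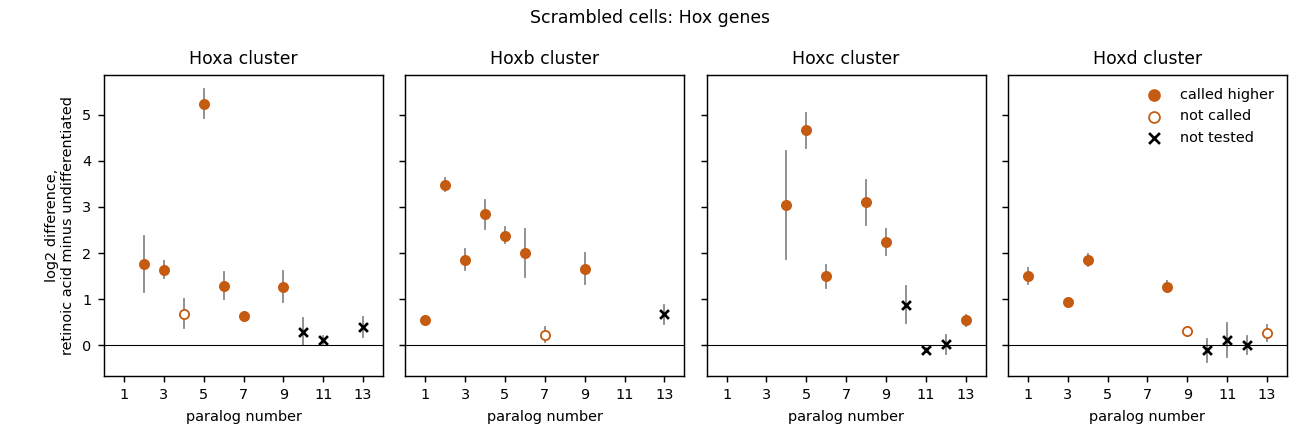
Difference between the mean log2 value after retinoic acid and the mean in undifferentiated scrambled cells (y axis) for the 37 measured Hox genes, by paralog number (x axis) in 1 panel per cluster. Bars run between the lowest and the highest of the 4 differences between single arrays; filled points were called higher, open points were tested and not called, and crosses were not tested. Groups 10 to 13 lie between -0.11 and 0.88.

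Hox proteins bind DNA with partners of the TALE homeobox class. Of 16 tested TALE genes 9 rose and 0 fell. Meis1 rose by 5.42 ± 0.18 (SE, adjusted p = 3.13e-08) or 42.9-fold, and Meis2 went from 4.15 and 4.45 to 9.60 and 9.84. Pbx2 (2.22 ± 0.30), Pknox2 (2.02 ± 0.20), Pbx3 (1.40 ± 0.23) and Meis3 (1.35 ± 0.15) rose as well. The repressors Tgif1 (-0.06 ± 0.21) and Tgif2 (0.09 ± 0.17) did not pass. In the Iroquois group Irx3 (1.16 ± 0.17) and Irx5 (0.91 ± 0.18) rose, and Irx1, Irx2 and Irx6 did not pass. Over the 17 measured genes of the TALE list the median change was 0.91.

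Neural genes rose in part. Of 14 tested progenitor factors 5 rose and 0 fell. Zic1 went from 3.78 and 4.18 to 6.40 and 6.09 (2.27 ± 0.20, SE, adjusted p = 7.94e-06), Pax6 from 4.33 and 5.56 to 7.11 and 7.01 and Pax3, a dorsal neural tube gene, from 4.05 and 4.32 to 6.54 and 6.0. The neural filament gene Nes rose by 1.44 ± 0.31 and Lhx2 by 0.87 ± 0.18. Sox1, which marks early neural plate, read 6.50 and 6.09 and then 6.29 and 6.21 (-0.04 ± 0.19, SE, adjusted p = 0.881). Neurog1, Neurog2 and Olig2 were not tested. Without undifferentiated replicate 1 the value was 0.91 for Nes. Over the 23 measured genes of the neural progenitor list the median change was 0.12. The neural progenitor list had, in place of 0 genes that fell, 1 without the KD2 arrays.

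Of 25 measured genes of neurons 15 passed the filter on dim genes, and of these 7 fell and 3 rose. Without the filter 7 rose and 7 fell. Stmn2, a microtubule regulator gene, fell from 9.32 and 9.26 to 5.67 and 5.72 (-3.60 ± 0.42, SE, adjusted p = 5.18e-05), the filament gene Ina from 8.45 and 8.63 to 6.25 and 5.98 and the granin gene Chga from 7.38 and 7.05 to 5.51 and 5.49. The RNA-binding gene Elavl2 (-1.90 ± 0.19) and the filament gene Nefl (-1.06 ± 0.35) fell. Isl1 (1.68 ± 0.25), a motor neuron and heart field gene, Syt1 (1.39 ± 0.34) and Ncam1 (1.34 ± 0.27) rose. Tubb3, the neuronal tubulin gene, did not pass (0.19 ± 0.40). Dcx was not tested. Nefl (-1.15 to -0.96) was not called when any 1 of the 4 scrambled arrays was left out. Syt1 (0.92 to 1.11) was not called when undifferentiated replicate 1 or differentiated replicate 2 was left out. Over the 25 measured genes of the neuronal list the median change was 0.19.

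Neural crest genes include several mesenchymal regulators. Of 15 tested neural crest genes 9 rose and 2 fell, with a median of 1.26, or 1.06 over all 16 measured. Twist1 went from 5.57 and 5.50 to 8.81 and 8.94 (3.34 ± 0.27, SE, adjusted p = 4.55e-06), Msx1 from 5.01 and 4.76 to 7.74 and 7.28, Msx2 from 4.82 and 4.59 to 7.17 and 7.25 and Tfap2b from 3.47 and 3.44 to 5.79 and 5.68. Snai2 rose by 2.15 ± 0.27 and the endothelin receptor gene Ednrb by 1.84 ± 0.21. Sox10, the crest lineage factor gene, did not pass (0.05 ± 0.16), and Foxd3 (-1.12 ± 0.21) and Ngfr (-1.24 ± 0.37) fell. Ngfr (-1.34 to -1.07) was not called when undifferentiated replicate 1, differentiated replicate 1 or differentiated replicate 2 was left out. The neural crest list had, in place of 2 genes that fell, 1 without undifferentiated replicate 1, differentiated replicate 1 or differentiated replicate 2.

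Of 19 tested genes of mesoderm and heart 11 rose and 1 fell. Foxc2 rose from 3.38 and 3.47 to 7.04 and 7.15 (3.67 ± 0.14, SE, adjusted p = 4.42e-08), and the mesothelial gene Upk3b from 4.26 and 4.10 to 7.43 and 7.35. Wt1, a factor of kidney and mesothelium, went from 5.54 and 5.89 to 7.92 and 8.73, Tbx18 from 4.05 and 4.02 to 6.37 and 6.10 and cardiac actin, Actc1, from 5.51 and 6.17 to 8.64 and 8.80. Of other heart muscle genes, Tnnt2 (-0.09 ± 0.15), Myl7 (-0.01 ± 0.54) and Nkx2-5 (0.27 ± 0.18) did not pass. Tcf15, which is also active in ESCs that leave the naive state, fell (-1.16 ± 0.34). In the endothelial and blood list 2 of 11 tested genes rose and 4 fell. Pecam1, an adhesion gene that ESCs share with endothelium, fell from 9.07 and 8.20 to 4.54 and 4.94, and Cd34 (-1.32 ± 0.26), Esam (-0.47 ± 0.17) and Tek (-1.22 ± 0.29) fell too. The factor gene Gata2 rose from 5.13 and 5.38 to 7.60 and 7.59 and the receptor gene Kdr by 1.02 ± 0.24. Cdh5 and Gata1 were not tested. Tcf15 (-1.19 to -1.14) was not called when any 1 of the 4 scrambled arrays was left out. Esam (-0.54 to -0.31) was not called when undifferentiated replicate 1, undifferentiated replicate 2 or differentiated replicate 1, or any 1 of 6 KD1 arrays was left out. Tek (-0.97) was not called when differentiated replicate 2 was left out. Kdr (0.87) was not called when undifferentiated replicate 1 was left out. Over the 23 measured genes of the mesoderm list the median change was 0.54. Over the 17 measured genes of the endothelial and blood list the median change was -0.16. The endothelial and blood list had, in place of 2 genes that rose, 1 without undifferentiated replicate 1.

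In the primitive streak list 4 of 12 tested genes fell and 1, Foxa2 (0.74 ± 0.25), rose. Over all tested genes 16.7% were lower and 22.4% higher. Beside Nodal and Fgf8 (-0.86 ± 0.29) the falls were of Eomes (-1.17 ± 0.40, SE, adjusted p = 0.0379) and Gsc (-0.75 ± 0.23). Several of these genes were higher on undifferentiated replicate 1 than on replicate 2, as Cyp26a1 and Mir302 were: Eomes read 5.96 and 4.31, Cer1 6.11 and 3.58 and Mixl1 5.12 and 4.08 on replicates 1 and 2. Over the 16 measured genes of the list the mean level was 5.46 and 4.89 on these arrays and 4.74 and 4.77 after retinoic acid. With the 4 scrambled arrays alone 1 of the list fell in place of 4. Foxa2 (0.49 to 0.86) was not called when undifferentiated replicate 2, differentiated replicate 1 or differentiated replicate 2 was left out. Foxa2 (0.61 to 0.65) was not called under cyclic loess or median centring. Fgf8 (-0.99 to -0.34) was not called when undifferentiated replicate 1, differentiated replicate 1 or differentiated replicate 2 was left out. Without undifferentiated replicate 2 the value was -1.37 for Fgf8, -1.99 for Eomes and -1.13 for Gsc. Eomes (-1.34 to -0.34) was not called when undifferentiated replicate 1, differentiated replicate 1 or differentiated replicate 2, or any 1 of 4 KD1 arrays was left out. Gsc (-0.60 to -0.38) was not called when undifferentiated replicate 1 or differentiated replicate 1 was left out. Over the 16 measured genes of the streak list the median change was 0.01. The streak list had, in place of 4 genes that fell, 1 without undifferentiated replicate 1 or differentiated replicate 1 and 2 without differentiated replicate 2.

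**Figure D4:**
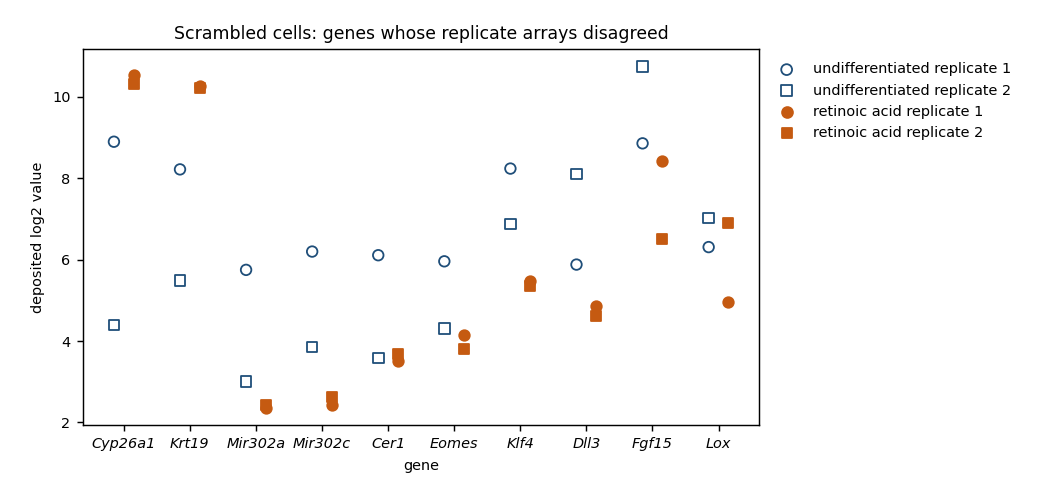
Deposited log2 value (y axis) on each of the 4 scrambled arrays for genes whose replicate arrays disagreed, chosen after their values were seen. In Lox and Fgf15 the differentiated arrays disagreed. Circles are replicate 1 and squares replicate 2, open before and filled after retinoic acid; Cyp26a1, Mir302a and Cer1 were higher on undifferentiated replicate 1, and Dll3 and Fgf15 on replicate 2.

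Endoderm transcription factors changed unevenly. Of 10 tested genes 5 rose and 1 fell. Gata6 went from 5.77 and 4.76 to 8.73 and 9.15 (3.67 ± 0.27, SE, adjusted p = 2.32e-06). Gata4 rose from 5.25 and 5.36 to 6.47 and 6.30 (1.08 ± 0.19) and Sox17 from 4.61 and 4.71 to 5.88 and 5.46 (1.01 ± 0.24), while Sox7 did not pass (0.37 ± 0.48). The pioneer factor genes Foxa1 (1.52 ± 0.27) and Foxa2 rose, and Prdm1 fell by 2.17 log2 units. Of 16 basement membrane and parietal endoderm genes 9 rose, with type IV collagen genes Col4a1 (1.43 ± 0.25) and Col4a2 (1.69 ± 0.17), Sparc (1.26 ± 0.23) and the hormone receptor gene Pth1r (2.56 ± 0.24) beside Plat and Dab2. The laminin gene Lamb1 did not pass (0.32 ± 0.21). The secreted products of visceral endoderm were mostly not tested: Afp read 3.39 and 3.48 and then 3.40 and 3.61, and Alb 2.91 and 2.95 and then 2.91 and 2.95. Of 12 tested genes in that list 2 rose, Cubn (2.42 ± 0.54) and Dkk1 (0.76 ± 0.22), and 2 fell, Trf (-1.03 ± 0.25) and Apoe, from 11.63 and 11.32 to 8.23 and 7.99. Sox17 (0.80) and Cubn (1.98) were not called when differentiated replicate 1 was left out. Dkk1 (0.45 to 0.82) was not called when undifferentiated replicate 2, differentiated replicate 1 or differentiated replicate 2 was left out. Trf (-0.92 to -0.78) was not called when undifferentiated replicate 1 or differentiated replicate 1 was left out. Over the 11 measured genes of the endoderm factor list the median change was 0.37. The endoderm factor list had, in place of 5 genes that rose, 3 without differentiated replicate 1. Over the 20 measured genes of the visceral endoderm list the median change was 0.05. The visceral endoderm list had, in place of 2 genes that rose, 0 without differentiated replicate 1. The visceral endoderm list had, in place of 2 genes that fell, 1 without undifferentiated replicate 1 or differentiated replicate 1.

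In the trophectoderm list 7 of 12 tested genes rose and 2 fell. Besides Gata3 these were mainly simple epithelial keratins, which other epithelia share: Krt8 went from 9.35 and 8.10 to 11.11 and 11.17, Krt18 from 8.11 and 7.09 to 10.82 and 10.81 and Krt7 from 5.27 and 4.17 to 7.93 and 8.06 (3.28 ± 0.37, SE, adjusted p = 4.61e-05). Krt19 rose by 3.39 ± 0.67, from 8.22 and 5.49 to 10.27 and 10.23. Plac1 rose by 2.84 ± 0.34. The defining factor Cdx2 did not pass, Elf5 was not tested, and Tfap2c (-1.34 ± 0.41) and Eomes fell. Without undifferentiated replicate 2 the value was 2.03 for Krt19. Tfap2c (-1.47 to -1.07) was not called when undifferentiated replicate 1, undifferentiated replicate 2 or differentiated replicate 2 was left out. Over the 16 measured genes of the trophectoderm list the median change was 0.32. The trophectoderm list had, in place of 2 genes that fell, 0 without undifferentiated replicate 1 or differentiated replicate 2 and 1 without undifferentiated replicate 2, differentiated replicate 1 or any 1 of 4 KD1 arrays.

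Meiosis genes split in direction. Of 15 tested germline genes 4 rose and 7 fell. Rec8, the meiotic cohesin gene, rose from 5.18 and 5.40 to 9.28 and 9.44 (4.07 ± 0.43, SE, adjusted p = 2.53e-05) together with Stra8, and Ddx4 (1.38 ± 0.36) and Sohlh2 (1.71 ± 0.35) rose too. Genes of the meiotic chromosome axis and of recombination fell: Sycp3 from 7.21 and 7.10 to 3.67 and 3.41 (-3.62 ± 0.41, SE, adjusted p = 4.61e-05), Hormad1 from 6.90 and 6.92 to 4.93 and 5.0 and Dmc1 from 6.58 and 6.55 to 5.03 and 4.96. Kit, the receptor gene of germ cells, fell by 2.73 log2 units. Ddx4 (1.03 to 1.35) was not called when undifferentiated replicate 1 or differentiated replicate 1 was left out. Over the 21 measured genes of the germline list the median change was -0.20.

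Imprinted genes, which are read from the copy of one parent, rose in 14 of 25 tested cases and fell in 2, with a median of 1.52, or 0.94 over all 29 measured. Igf2, the fetal growth factor gene, went from 7.15 and 6.35 to 11.46 and 11.83 (4.90 ± 0.26, SE, adjusted p = 3.31e-07), and Plagl1, a zinc finger gene of the same growth network, from 5.26 and 5.34 to 10.05 and 10.24. Cdkn1c, a cell cycle inhibitor gene, rose from 7.20 and 7.63 to 10.89 and 11.11 and Peg10 from 8.53 and 8.05 to 11.61 and 11.76. The neighbours Peg3 (3.33 ± 0.27) and Zim1 (4.06 ± 0.38) both rose, and so did the noncoding RNA gene Airn (3.00 ± 0.70). At the Dlk1 region the genes went apart: Dlk1, read from the paternal copy, rose by 5.44 ± 0.23 or 43.3-fold, and Meg3, read from the maternal copy, fell from 6.64 and 6.96 to 5.68 and 6.13 (-0.89 ± 0.20, SE, adjusted p = 0.00418). Magel2 was the other member that fell (-0.63 ± 0.20). Meg3 (-0.66) was not called when differentiated replicate 1 was left out. Magel2 (-0.45 to -0.43) was not called when undifferentiated replicate 2 or differentiated replicate 1 was left out. The imprinted list had, in place of 2 genes that fell, 0 without differentiated replicate 1 and 1 without undifferentiated replicate 2.

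Of 25 tested BMP pathway genes 12 rose and 1 fell, with a median of 0.69. The ligand genes Bmp5 (2.37 ± 0.19) and Bmp7 (1.84 ± 0.23) rose, while Bmp4, the main ligand of ESC serum cultures, read 8.81 and 7.86 and then 8.50 and 8.95 and did not pass (0.39 ± 0.33). The signal carriers Smad1 (1.97 ± 0.30) and Smad5 (1.43 ± 0.20) and the inhibitory Smad6 (2.67 ± 0.30) rose. Their classic targets rose as well: Id1 from 7.10 and 7.59 to 9.25 and 8.95, Id2 from 8.04 and 8.44 to 10.62 and 10.35 and Id3 from 7.73 and 7.28 to 9.58 and 9.27 (1.92 ± 0.41, SE, adjusted p = 0.0034). Id4 did not pass (-0.70 ± 0.28), and the antagonist gene Grem1 fell by 1.06. Id4 (-0.70) passed without the KD2 arrays. Under cyclic loess (-0.81) and median centring (-0.79) Id4 passed as well.

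In the Wnt list 15 of 35 tested genes rose and 6 fell. Receptor genes changed in both directions: Fzd5 fell from 8.62 and 8.13 to 5.11 and 5.40 (-3.12 ± 0.29, SE, adjusted p = 9.99e-06), and Fzd4 rose from 5.93 and 6.63 to 8.15 and 7.86. The agonist gene Rspo3 (2.50 ± 0.23) and the ligand gene Wnt11 (1.74 ± 0.26) rose, and Wnt8a fell (-1.88 ± 0.23). Inhibitors moved both ways too: Nkd1 went from 5.47 and 5.41 to 8.29 and 8.57, Dkk2 rose by 2.28 ± 0.43 and Sfrp1 by 2.01 ± 0.24, and Notum fell (-1.54 ± 0.34). Over the 38 measured genes of the Wnt list the median change was 0.40.

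In the Notch list 9 of 20 tested genes fell and 2 rose, the ubiquitin ligase genes Dtx4 (1.05 ± 0.31) and Mib1 (0.58 ± 0.21). The ligand genes Jag1 (9.25 and 9.21 to 6.62 and 6.36) and Dll1 (7.45 and 8.42 to 5.18 and 4.75) and the sugar transferase genes that tune the receptors, Lfng (-1.27 ± 0.16) and Mfng (-1.60 ± 0.19), fell. The target genes Hes1 (0.99 ± 0.38) and Hey1 (-0.15 ± 0.23) did not pass. Dll3 fell by 2.26, with undifferentiated arrays at 5.88 and 8.11. Dtx4 (0.60 to 0.71) was not called when undifferentiated replicate 1 or differentiated replicate 1 was left out. Mib1 (0.43 to 0.73) was not called when any 1 of the 4 scrambled arrays, or any 1 of 6 KD1 arrays was left out. Mib1 (0.48 to 0.50) was not called under cyclic loess or median centring. Hes1 (0.99) passed without the KD2 arrays, and at 0.92 under cyclic loess. Without undifferentiated replicate 2 the value was -1.15 for Dll3. Over the 21 measured genes of the Notch list the median change was -0.30. The Notch list had, in place of 2 genes that rose, 0 without undifferentiated replicate 1 or differentiated replicate 1, 1 without undifferentiated replicate 2, differentiated replicate 2 or any 1 of 5 KD1 arrays and 4 without the KD2 arrays. The Notch list had, in place of 9 genes that fell, 5 without differentiated replicate 1.

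In the hedgehog list 6 of 11 tested genes rose and 2 fell. Surface and signal components rose: the co-receptor genes Gas1, from 6.54 and 6.68 to 9.70 and 10.17 (3.32 ± 0.22, SE, adjusted p = 1.08e-06), and Boc (1.58 ± 0.25), the transducer gene Smo (1.39 ± 0.18), the inhibitor gene Sufu (0.99 ± 0.19) and the factor gene Gli3 (1.86 ± 0.36). The pathway's own targets Ptch1, from 9.45 and 9.94 to 8.65 and 7.36, and Gli1, from 7.04 and 7.26 to 6.22 and 5.83, fell, and a further target, Hhip, rose by 2.86 ± 0.48. The ligand gene Ihh did not pass. Over the 13 measured genes of the hedgehog list the median change was 0.48.

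Epithelial junction genes were among those that fell and regulators of mesenchyme among those that rose. Of 25 tested genes 11 rose and 10 fell. E-cadherin, Cdh1, went from 11.68 and 11.87 to 9.57 and 9.52 (-2.23 ± 0.30, SE, adjusted p = 0.00014), Epcam from 10.02 and 10.06 to 7.16 and 6.42 and the epithelial splicing factor gene Esrp1 from 8.66 and 9.20 to 5.90 and 5.35. The claudin genes Cldn3, Cldn4, Cldn6 and Cldn7 fell, by 1.45, 1.69, 1.58 and 2.33 log2 units. N-cadherin, Cdh2, rose from 7.53 and 7.78 to 9.58 and 9.60, Vim from 10.89 and 10.68 to 12.20 and 12.46, Zeb1 from 6.24 and 5.99 to 7.75 and 8.06 and Zeb2 from 4.21 and 4.40 to 6.08 and 6.23. Tgfb2 rose by 3.02 ± 0.21. Exceptions stood on both sides: fibronectin, Fn1, fell (-1.10 ± 0.25), and the desmosome gene Dsp rose (0.96 ± 0.18).

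Contractile genes of smooth muscle rose in 12 of 13 tested cases and fell in 0, with a median of 1.73, or 1.71 over all 14 measured. Acta2 went from 9.38 and 9.84 to 12.07 and 12.30, Tagln from 7.92 and 7.86 to 10.86 and 10.89 (2.98 ± 0.25, SE, adjusted p = 5.84e-06), Cnn1 from 5.59 and 6.90 to 8.94 and 9.38 and Tpm1 from 9.19 and 9.24 to 11.52 and 11.67. Smtn was the tested gene that did not pass (0.23 ± 0.17). Fibroblasts of the feeder layer also express many of these genes. Of 17 tested feeder fibroblast markers 3 rose, Col3a1 (2.25 ± 0.38), Mmp2 (1.42 ± 0.35) and Pdgfrb (0.82 ± 0.21), and 6 fell, among them Thy1 (-1.99 ± 0.29), Postn (-1.0 ± 0.32) and Cd44 (-1.25 ± 0.24). The mean over 20 measured markers was 6.21 and 6.23 before and 5.83 and 6.22 after retinoic acid. Col1a1 read 9.0 and 8.98 and then 8.99 and 10.17, and Lox 6.31 and 7.02 and then 4.96 and 6.89, so differentiated replicate 2 was higher than replicate 1 in both. The part of feeder RNA in the mesenchymal results was not tested. Mmp2 (0.95 to 1.06) and Pdgfrb (0.70 to 0.76) were not called when undifferentiated replicate 1 or differentiated replicate 2 was left out. Postn (-1.08 to -0.92) was not called when any 1 of the 4 scrambled arrays was left out. Over the 20 measured genes of the feeder marker list the median change was -0.16. The feeder marker list had, in place of 3 genes that rose, 1 without undifferentiated replicate 1 or differentiated replicate 2. The feeder marker list had, in place of 6 genes that fell, 3 without undifferentiated replicate 1.

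Glycolytic genes were lower in part. Of 21 tested genes of glycolysis and of threonine or glycine use 12 fell and 0 rose, with a median of -0.95. The platelet-type phosphofructokinase gene Pfkp went from 10.74 and 9.71 to 6.13 and 6.29 (-4.01 ± 0.37, SE, adjusted p = 1.08e-05). The glucose transporter gene Slc2a3 went from 12.70 and 12.28 to 10.43 and 9.95 and the lactate exporter gene Slc16a3 from 10.58 and 10.74 to 7.78 and 7.93. Pdk1, a kinase that keeps pyruvate out of the mitochondrion, fell from 9.25 and 8.83 to 6.78 and 6.46. Gldc, which cleaves glycine for one-carbon units, fell from 10.74 and 10.70 to 7.74 and 7.49 (-3.10 ± 0.17). The core enzyme genes Pkm (-0.36 ± 0.19) and Aldoa (-0.40 ± 0.30) did not pass. Pkm (-0.36) and Aldoa (-0.40) passed without the KD2 arrays, and Pkm at -0.34 under cyclic loess. The glycolysis list had, in place of 0 genes that rose, 1 without the KD2 arrays.

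In the cholesterol list 8 of 22 tested genes fell and 0 rose. Abcg1, a sterol exporter gene, fell from 8.75 and 9.07 to 5.91 and 6.0 (-2.95 ± 0.22, SE, adjusted p = 2.4e-06). The late synthesis genes Ebp (-1.37 ± 0.22) and Dhcr7 (-1.33 ± 0.23) fell. Hmgcs1, an early gene of the pathway, did not pass (0.66 ± 0.36). Hmgcs1 (0.66) passed without the KD2 arrays. The cholesterol list had, in place of 0 genes that rose, 3 without the KD2 arrays. The cholesterol list had, in place of 8 genes that fell, 4 without undifferentiated replicate 2.

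Cell cycle regulators rose in 10 and fell in 3 of 33 tested cases, against 22.4% higher and 16.7% lower over all tested genes. Inhibitors and D cyclins were among the genes that rose: Cdkn2a from 5.37 and 5.22 to 6.87 and 7.12, Cdkn2b from 5.95 and 5.88 to 7.61 and 8.06, Rb1 (1.05 ± 0.21), Ccnd2 from 8.35 and 8.54 to 11.11 and 11.10 (2.66 ± 0.33, SE, adjusted p = 7.77e-05) and Ccnd3 (1.51 ± 0.41). Myc rose by 1.67 ± 0.31. Ccne1 (-0.85 ± 0.16), Ccne2 (-0.53 ± 0.17) and Mki67 (-0.71 ± 0.21) fell. Ccnd3 (1.30 to 1.35) was not called when undifferentiated replicate 2 or differentiated replicate 2 was left out. Ccne2 (-0.59 to -0.35) was not called when undifferentiated replicate 1, undifferentiated replicate 2 or differentiated replicate 2 was left out. Mki67 (-0.79 to -0.62) was not called when any 1 of the 4 scrambled arrays was left out. The cell cycle list had, in place of 3 genes that fell, 1 without undifferentiated replicate 1, undifferentiated replicate 2 or differentiated replicate 2 and 8 without the KD2 arrays.

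Targets of p53 rose in 12 of 19 tested cases and fell in 0, with a median of 0.80. Plk2 went from 8.61 and 8.92 to 10.73 and 10.88, Perp from 7.39 and 7.80 to 9.06 and 9.65 and Phlda3 from 7.46 and 7.47 to 9.14 and 9.23 (1.72 ± 0.23, SE, adjusted p = 0.000148). Mdm2, the feedback regulator gene, rose by 0.80 ± 0.16 and Sesn1 by 1.22 ± 0.18. The death genes Bbc3 (0.26 ± 0.16) and Pmaip1 (0.56 ± 0.27) did not pass.

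Genes that write and erase DNA methylation changed in both directions. Of 14 tested genes 5 fell and 4 rose. Dnmt3l, the cofactor of de novo methylation, fell from 10.09 and 9.52 to 6.05 and 6.14 (-3.71 ± 0.38, SE, adjusted p = 2.26e-05) with Dnmt3b, whereas Dnmt3a (0.39 ± 0.31) and the maintenance gene Dnmt1 (0.23 ± 0.16) did not pass. Among the dioxygenases that oxidise methylcytosine, Tet1 fell from 10.54 and 10.25 to 7.20 and 7.08 and Tet2 by 0.90, and Tet3 rose from 4.68 and 5.24 to 6.76 and 6.71. The genes Mbd1 (1.02 ± 0.20), Mbd2 (2.08 ± 0.15) and Mbd3 (0.75 ± 0.26) of the methyl-binding family rose. Trim28, whose product guards imprints with Zfp57, fell by 0.40. Dnmt3a (0.94) passed without undifferentiated replicate 2. Tet2 (-0.86 to -0.58) was not called when undifferentiated replicate 1 or differentiated replicate 1 was left out. Mbd3 (0.64 to 0.86) and Trim28 (-0.43 to -0.37) were not called when any 1 of the 4 scrambled arrays, or any 1 of 6 KD1 arrays was left out. Mbd3 (0.66) was not called under median centring. The DNA methylation list had, in place of 5 genes that fell, 3 without undifferentiated replicate 1 or differentiated replicate 1.

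Polycomb subunits also changed both ways, 10 higher and 7 lower of 28 tested. In the first repressive complex Phc1 fell from 9.39 and 9.70 to 7.29 and 7.40 (-2.20 ± 0.18, SE, adjusted p = 4.03e-06), while Bmi1, known to repress Cdkn2a and Cdkn2b, rose from 6.64 and 7.18 to 8.92 and 8.78, Rnf2 from 7.61 and 7.63 to 9.39 and 9.20 and Yaf2 from 6.14 and 6.64 to 8.51 and 8.73. Cbx2 (1.18 ± 0.17) and Cbx8 (1.23 ± 0.19) rose. In the second complex Suz12 (-0.94 ± 0.17) and Jarid2 (-0.98 ± 0.15) fell. BAF subunits rose in 13 of 27 tested cases and fell in 0, with a median of 0.43, or 0.43 over all 28 measured. The ATPase gene Smarca2 went from 4.44 and 4.07 to 5.83 and 6.31 (1.82 ± 0.22, SE, adjusted p = 6.82e-05), Smarcc2 rose by 1.23 ± 0.23, Smarce1 by 1.56 ± 0.26 and Smarcd3 by 1.45 ± 0.42. Smarcd1 did not pass (0.07 ± 0.33). Smarcd3 (1.25 to 1.45) was not called when undifferentiated replicate 2, differentiated replicate 1 or differentiated replicate 2 was left out. The polycomb list had, in place of 7 genes that fell, 4 without differentiated replicate 2. The BAF list had, in place of 13 genes that rose, 7 without differentiated replicate 1 and 8 without undifferentiated replicate 2 or differentiated replicate 2. The BAF list had, in place of 0 genes that fell, 1 without the KD2 arrays.

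Membrane genes of the interferon family fell: Ifitm1 went from 10.65 and 10.79 to 7.27 and 7.13 (-3.52 ± 0.38, SE, adjusted p = 3.36e-05), the tetherin gene Bst2 from 8.09 and 8.46 to 6.20 and 6.28 and Ifitm2 by 1.19. The Ifitm genes are close copies that probes may not separate. In the list as a whole 6 of 13 tested genes fell and 1, the peptide transporter gene Tap1 (1.11 ± 0.27), rose. Tap1 (0.71 to 0.90) was not called when undifferentiated replicate 1 or differentiated replicate 2 was left out. Over the 17 measured genes of the interferon list the median change was -0.20.

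The response of scrambled cells was set against that of KD1 cells, which were differentiated in the same way and share no array with it. The difference between the responses passed an adjusted p of 0.05 for 1024 tested genes (7.88%), 555 with a more positive change in KD1 (4.27%) and 469 with a more negative one (3.61%). The differentiated KD1 arrays fell into unlike pairs for some genes; Nanog read 4.14 and 4.71 on replicates 1 and 2 and 7.14 and 6.94 on replicates 3 and 4. The count was 569 with replicates 1 and 2 and 804 with replicates 3 and 4, and leaving out 1 array of scrambled cells or of undifferentiated KD1 cells gave 456 to 666, so every such array moved it. Without the KD2 arrays it was 2399.

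Several strong rises of scrambled cells were smaller in KD1. Aldh1a2 changed by -0.39 ± 0.25 in KD1, a difference of -4.39 ± 0.37 (SE, adjusted p = 5.24e-05). Upk3b changed by -0.25 ± 0.13 and Foxc2 by 0.39 ± 0.12, with differences of -3.46 ± 0.20 and -3.28 ± 0.18. Dlk1 rose by 1.24 ± 0.20 in KD1 (difference -4.20 ± 0.30), Plagl1 by 1.64 ± 0.22 and Hoxc5 by 1.54 ± 0.25. Sfrp1 went the other way in KD1 (-2.34 ± 0.20), as did Tgfbi (-1.01 ± 0.33), a matrix gene that rose by 2.53 ± 0.38 in scrambled cells. Crispld2, a secreted protein gene, rose by 3.53 ± 0.28 in scrambled cells and changed by -0.05 ± 0.25 in KD1. Aldh1a7 behaved likewise (3.51 ± 0.23 and 0.35 ± 0.20), though it is a close copy of Aldh1a1. Of 27 tested Hox genes the difference was past the threshold for 13, 12 of them more negative in KD1.

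Some endoderm genes differed in the other direction. Of 10 tested endoderm transcription factors 5 had a more positive change in KD1, and of 12 tested visceral endoderm genes 1. Gata4 rose by 4.86 ± 0.17 in KD1 against 1.08 ± 0.19 in scrambled cells, a difference of 3.78 ± 0.26 (SE, adjusted p = 1.86e-05), and Sox7 by 4.19 ± 0.42 against 0.37 ± 0.48. Of 16 basement membrane genes 9 had a more positive change in KD1 and 0 a more negative one. Flt1 (-0.68 ± 0.37 in scrambled cells and 4.26 ± 0.32 in KD1), Chst15 (-0.15 ± 0.31 and 4.54 ± 0.26), Fst (-0.06 ± 0.26 and 3.84 ± 0.23), Adamts9 (-0.84 ± 0.45 and 3.02 ± 0.39), the pepsinogen gene Pga5 (-1.0 ± 0.43 and 2.81 ± 0.37) and Frzb (-0.21 ± 0.27 and 3.61 ± 0.23) did not pass in scrambled cells. Slc39a8, Car2 and Serpinb6c fell in scrambled cells, by 1.5, 1.79 and 2.36, and changed by 3.61 ± 0.20, 2.50 ± 0.23 and 1.45 ± 0.23 in KD1. Rarb (4.95 ± 0.25), Trh (-7.90 ± 0.26), Slc7a3 (-6.39 ± 0.26) and Pmp22 (4.45 ± 0.30) were named after their values were seen; their changes in KD1 differed from those in scrambled cells by 0.38 ± 0.37, -0.00 ± 0.40, 0.03 ± 0.40 and -0.07 ± 0.46 (SE), and these 4 differences did not pass. Flt1 (-1.41) and Adamts9 (-1.52) passed without undifferentiated replicate 2. Pga5 (-1.0) passed without differentiated KD1 replicate 1.

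**Figure D5:**
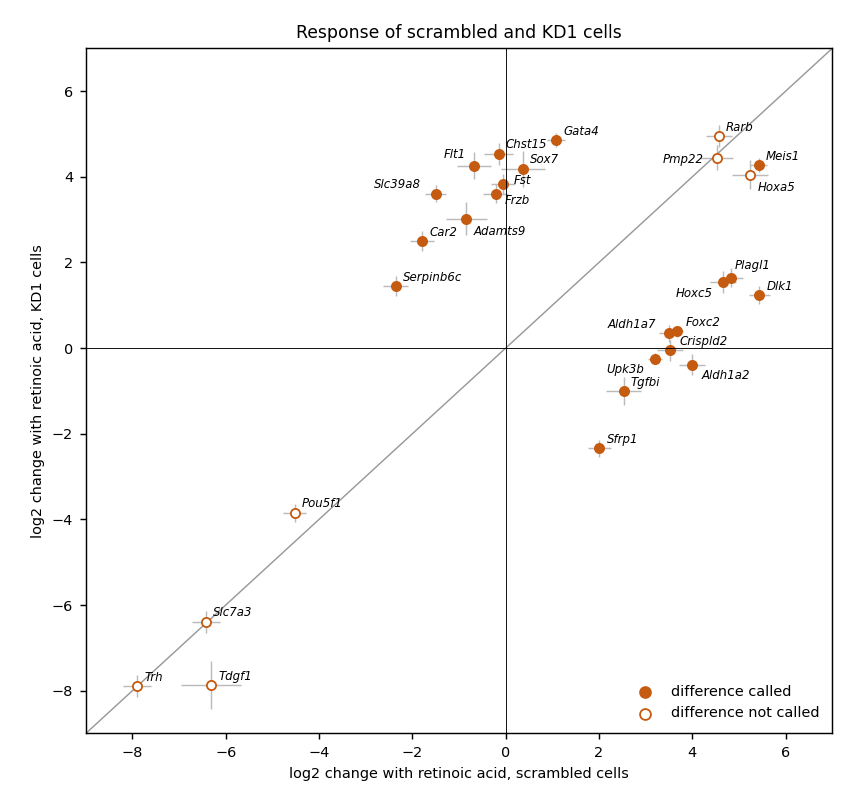
Log2 change with retinoic acid in scrambled cells (x axis) and in KD1 cells (y axis) for 28 named genes, with bars of 1 SE from limma. Filled points have a difference past an adjusted p of 0.05 and open points do not; the line marks equal changes. Aldh1a2, Upk3b and Foxc2 lie far below the line and Gata4 and Fst far above it.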

How the data were processed

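RNA was hybridised to Affymetrix mouse gene arrays, 1 per sample. The values are log2 intensities that the authors deposited, made by robust multi-array averaging (RMA) per the submitters' processing notes; background correction and normalization between arrays were part of those values and were not redone. Of 35556 probe sets, 21789 had exactly 1 gene symbol in the platform annotation, and the probe set with the highest mean stood for each of 19938 genes. Genes above percentile 40 of an array on at least 2 of 12 arrays (12988) were fitted as 5 group means with limma 3.58.1 in R 4.3.3, and two-sided p-values were adjusted by Benjamini-Hochberg over all of them. The script was tested on simulated data. Groups came from the sample titles.

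Members and gene lists were chosen with earlier results of these data known. Named genes were the 4 markers, Smarcd1, the 20 largest called changes in each direction whose arrays do not overlap, members of lists (in lists of over 25 measured genes the 8 largest called changes and any against the main direction), Hox genes, and the 10 largest differences from KD1 in each direction; exceptions are marked in the text. Alternatives were the filter, median centring or cyclic loess, array weights, an intensity trend in eBayes, fewer arrays, the mean of probe sets and a replicate block. Sequences and their coordinates are those of RefSeq on GRCm38.p6. A gene without a probe set of 1 symbol was not analysed here.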

Additional observations from a re-analysis of the deposited data

Results flagged for a closer look

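The change with retinoic acid differed between scrambled and KD1 cells, by the interaction contrast of the limma fit, for 21 of 25 genes whose KD1 change is printed, and for 108 of all named genes. These 21 were mostly chosen for the size of this difference, so their number is no result. The differences below are the KD1 change minus the scrambled change on the log2 scale.

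More negative in KD1 were the retinoic acid synthesis gene Aldh1a2 (-4.39) and its relative Aldh1a7 (-3.16), the Wnt inhibitor gene Sfrp1 (-4.36), the imprinted genes Dlk1 (-4.20) and Plagl1 (-3.20), the matrix and secreted protein genes Crispld2 (-3.57) and Tgfbi (-3.55), the mesothelial gene Upk3b (-3.46), the mesoderm factor gene Foxc2 (-3.28) and Hoxc5 (-3.12).

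More positive in KD1 were the endoderm factor genes Gata4 (3.78) and Sox7 (3.82), the metal transporter gene Slc39a8 (5.11), the receptor gene Flt1 (4.95), the sulfotransferase gene Chst15 (4.69), the carbonic anhydrase gene Car2 (4.28), the activin antagonist gene Fst (3.90), the protease gene Adamts9 (3.87), the pepsinogen gene Pga5 (3.82), the Wnt antagonist gene Frzb (3.82) and the serpin gene Serpinb6c (3.80). Serpinb6c belongs to a family of close copies that the probes may not separate.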

How the results depend on the processing

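Of 282 named genes called in scrambled cells, 235 passed under each alternative fitted across several groups in which they were tested. Genes that the filter at percentile 60 removed were not tested under it and were not counted as lost. For example, 7 neural progenitor genes were tested there in place of 14. With the 4 scrambled arrays alone 277 passed, and no called gene changed direction. The count of 5079 called genes was 6403 with those arrays alone, 6904 with array weights, 3332 at an adjusted p under 0.01, 2645 with at least 1 log2 unit of change, and 3341 to 7074 when each array was left out. Median centring moved the share of higher genes among those called from 57.4% to 50.5%. A stricter filter, percentile 60, left fewer Hox genes to test, of which 9 rose. The KD1 difference was called for 1024 genes, for 2399 without KD2, for 569 with differentiated KD1 replicates 1 and 2 alone, and for 456 to 2399 when each array was left out. The 21 called differences printed above passed under each alternative checked for them, a check that for single genes was chosen after seeing the data. Array weights, the intensity trend, the mean of probe sets and the filter at percentile 60 were not checked for these differences. With the replicate block the counts were 4252 and 447. Differences between replicates 1 and 2 correlated at 0.05 between undifferentiated and differentiated scrambled cells. They correlated at 0.24 between undifferentiated scrambled and undifferentiated KD1 cells, and at -0.18 to -0.05 between the other groups compared. A single such difference per group cannot show whether the replicate numbers pair the samples. With 2 arrays a group and both KD2 arrays in the pooled spread, a change that did not pass is not shown to be absent.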

Other observations

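The undifferentiated scrambled arrays differed by over 2 log2 units for 9 tested genes, against 3 for the differentiated arrays. Beside Cyp26a1, Krt19 and Dll3 these were the xenobiotic oxidase gene Cyp1a1, which read 5.20 on undifferentiated replicate 1 and 8.28 on replicate 2, the synaptotagmin gene Syt11 (6.62 and 9.32), Fam171b (4.60 and 7.22), Tmem54 (6.21 and 8.69), the glycosyltransferase gene Galnt3 (5.90 and 8.0) and the protease inhibitor gene A2m (8.16 and 5.86). After retinoic acid Cyp1a1 read 3.56 and 3.27, Tmem54 5.17 and 4.82, Galnt3 5.14 and 5.04 and A2m 4.62 and 4.87, below both undifferentiated arrays. Syt11 (7.57 and 8.05) and Fam171b (5.92 and 5.81) lay between them.

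In the list of genes of the 2-cell-like state, a rare state of ESCs that resembles the early embryo, 4 of 8 genes were measured and 1 was tested, and 0 passed. That gene was Eif1a, at -0.39 ± 0.17 (SE, limma adjusted p = 0.0888). Tcstv3, Usp17la and Zfp352 were not tested.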
